A study of Mus musculus with 6 samples.

Results

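The calcium transport genes described here are 10 genes that move calcium across cell membranes or bind it inside the cell: the plasma membrane calcium pumps Atp2b1, Atp2b2 and Atp2b4, the sodium-calcium exchanger Slc8a1, the channels Trpv4 and Trpv6, the buffers Calb1, Calb2 and S100g, and the vitamin D receptor Vdr. They were chosen by name, as every probe set whose gene symbol in the array's annotation is exactly 1 of these 10, of 18193 symbols on the array. All 10 were on the array, with 21 probe sets, of which 9 from 5 genes had a mean signal high enough to be tested. RNA of the stria vascularis, the potassium-secreting epithelium in the lateral wall of the cochlea, was hybridised to 6 Affymetrix oligonucleotide arrays. It came from mice at postnatal day 10, before the age at which mice begin to hear. The mice were heterozygous for Slc26a4 (3 arrays, replicates 1, 3 and 5) or lacked Slc26a4, which encodes the anion exchanger pendrin (3 arrays, replicates 2, 4 and 6). The controls thus carried 1 working copy and no wild-type array was analysed here; strain, the form of the deleted allele and whether a sample held 1 animal or a pool are not given in the labels, so p-values reflect only the spread among these samples, which may be technical in part.

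Endolymph is kept very low in calcium compared with blood, while hair cells need a small amount of it at their bundles. Plasma membrane calcium pumps use ATP to push calcium out of the cell, and Atp2b2 is the pump of the hair bundle, known for deafness when it is lost. In epithelia that absorb calcium, Trpv6 and its close relative Trpv5 let calcium in at the apical side, buffers such as Calb1 and S100g carry it through the cell, and pumps or Slc8a1 extrude it at the other side, a route that vitamin D acting through Vdr can increase. Pendrin secretes bicarbonate, and Trpv5 and Trpv6 are known to conduct less in acid fluid, an effect on channel function that transcript arrays do not record. Trpv5 was not analysed here.

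None of the 9 tested probe sets passed the test between genotypes (limma adjusted p between 0.370 and 0.930, threshold 0.05), where 0.0037% of all 27022 tested probe sets passed. At an unadjusted p under 0.05 there was 1 of 9, Atp2b4, higher in knockout samples, where 9.14% of all tested probe sets were higher and 2.47% lower at that p. Atp2b4 was also the 1 tested probe set of the 9 in which every knockout array lay above every heterozygous array, against 11% of all tested probe sets, and none lay wholly below, against 5.99%. Of the 9, 4 had a higher and 5 a lower mean in knockout samples on the log2(signal + 16) scale, with a median difference of -0.04, where the median of all tested probe sets was -0.0044. A share of 1 in 9 is near these backgrounds.

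The tissue label and the genotype labels were checked first. Kcnq1, the potassium channel of strial marginal cells, gave a signal between 5326 and 6341 on the 6 arrays, the melanocyte enzyme Tyr between 4368 and 5736, and the basal cell tight junction gene Cldn11 between 7412 and 8690. Other melanocyte genes were dimmer on their brightest probe sets, Tyrp1 at 1.03 to 13.1 and Pmel at 70.1 to 110.2. The 11 fibrocyte genes summed to between 33743 and 50425 on the 6 arrays. The check thus does not show that the samples were free of other tissue. Slc26a4 stood at 220.8, 248.2 and 1006 in heterozygous replicates 1, 3 and 5 and at 75.5, 106 and 154 in knockout replicates 2, 4 and 6, lower in each knockout array, although its log2 difference of -1.69 ± 0.50 (SE) did not pass (limma adjusted p = 0.370) and was -1.02 without heterozygous replicate 5. Whether its probe set lies in the deleted sequence is not given in the sources used here. Knockout replicate 4 stood apart, with the highest signal of the 6 arrays for 30.7% of all tested probe sets, where the other arrays had between 11.1% and 15.5%.

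Atp2b4 and Atp2b1 encode the same kind of pump, and the sequences before their listed starts are shown as a description. The pair was chosen because the genotypes separated for Atp2b4, without passing the test, and overlapped for Atp2b1, as described next. These sequences differ in composition, and a link to the genotype values was not tested. Whether the listed starts are those used in the stria vascularis was not tested either, so the windows may not be the active promoters there. Both runs are the 250 bases before the start of the RefSeq gene, assembly GRCm38.p6, read 5′ to 3′ on the gene's strand, with each CG dinucleotide in capitals. That of Atp2b4 is chr1:133753748-133753997 on the minus strand, and that of Atp2b1, the upstream of its listed starts, is chr10:98914392-98914641 on the plus strand.
Atp2b4: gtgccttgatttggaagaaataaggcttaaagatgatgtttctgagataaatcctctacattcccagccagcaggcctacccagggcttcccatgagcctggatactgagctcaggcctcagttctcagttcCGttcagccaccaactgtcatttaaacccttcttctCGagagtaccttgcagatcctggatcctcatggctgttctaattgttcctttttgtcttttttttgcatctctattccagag
Atp2b1: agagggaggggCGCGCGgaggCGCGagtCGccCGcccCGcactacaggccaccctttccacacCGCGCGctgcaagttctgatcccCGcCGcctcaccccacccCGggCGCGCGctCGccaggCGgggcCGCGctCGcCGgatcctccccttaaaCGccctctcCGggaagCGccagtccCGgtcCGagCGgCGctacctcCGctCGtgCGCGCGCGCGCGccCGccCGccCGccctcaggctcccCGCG
The Atp2b4 run holds 2 CG dinucleotides and 45.6% G and C, and the Atp2b1 run holds 43 and 78.4%, where the medians over 27025 promoters, 1 per gene, were 6 and 52.0%. Promoters were listed for 8 of the 10 genes. By this count Trpv4 had 22 CG dinucleotides, Atp2b2 16 (each at its first listed start), Vdr 11, Slc8a1 8, S100g 2 and Trpv6 1. The GC box GGGCGG, searched on both strands, was found 4 times in the Atp2b1 run, 3 times for Vdr, 2 times for Trpv4 and 1 time for Atp2b2, and not in these windows of the other 4 genes, where 32.9% of all promoters hold it. TATAAA, searched on both strands, was in none of the 8 windows, where 13% of all promoters hold it. A match describes the letters of this window and no factor was measured.

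Atp2b4 had the largest difference among the tested calcium genes of the list. It encodes a plasma membrane pump found in many tissues, and 1 probe set (1445701_at) measures it. Its signal was 82.0, 57.5 and 51.1 in heterozygous replicates 1, 3 and 5, and 145.6, 205.8 and 95.4 in knockout replicates 2, 4 and 6. Every knockout array was above every heterozygous one, and knockout replicate 4 was the highest. The means were 63.5 ± 16.3 and 149 ± 55.3 (SD, n = 3 each), a 2.02-fold difference on the log2(signal + 16) scale with a log2 difference of 1.02 ± 0.30 (SE) and a 95% interval from 0.34 to 1.69. It did not pass over all probe sets (limma adjusted p = 0.370), and the two-sided exact permutation p was 0.1, which is as low as 3 against 3 arrays can go. Without knockout replicate 4 the log2 difference was 0.77, and over all 16 alternatives in which it was tested it lay between 0.71 and 1.27.

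Markers of several cell types differed between the same arrays. The summed signal of 10 osteoclast genes was between 791.5 and 847.3 in heterozygous and between 1088 and 2269 in knockout arrays, with Calcr, Oscar, Dcstamp, Ocstamp, Atp6v0d2 and Tnfrsf11a under the signal filter. Of the 4 tested, 3 had a higher and 1 a lower mean in knockout arrays. For 7 osteoblast and osteocyte genes the sums ran from 3959 to 8088 in heterozygous and from 7708 to 13167 in knockout arrays, with Mepe under the filter. Of the 6 tested, 5 had a higher and 1 a lower mean in knockout arrays. The 6 Schwann cell genes summed to between 16206 and 16878 in heterozygous and between 17021 and 18100 in knockout arrays, with Mag under the filter. Of the 5 tested, 3 had a higher and 2 a lower mean in knockout arrays, with a median log2 difference of 0.0037. S100b alone stood at 9121 to 11296 on the 6 arrays. The 10 endothelial genes were lowest in knockout replicate 4, the array with the highest Atp2b4, at 3148, against 6497 to 11064 in the other arrays. The part of these cells in the Atp2b4 values was not tested, and in bulk RNA fewer cells of a type and less RNA per cell cannot be told apart.

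**Figure D1:**
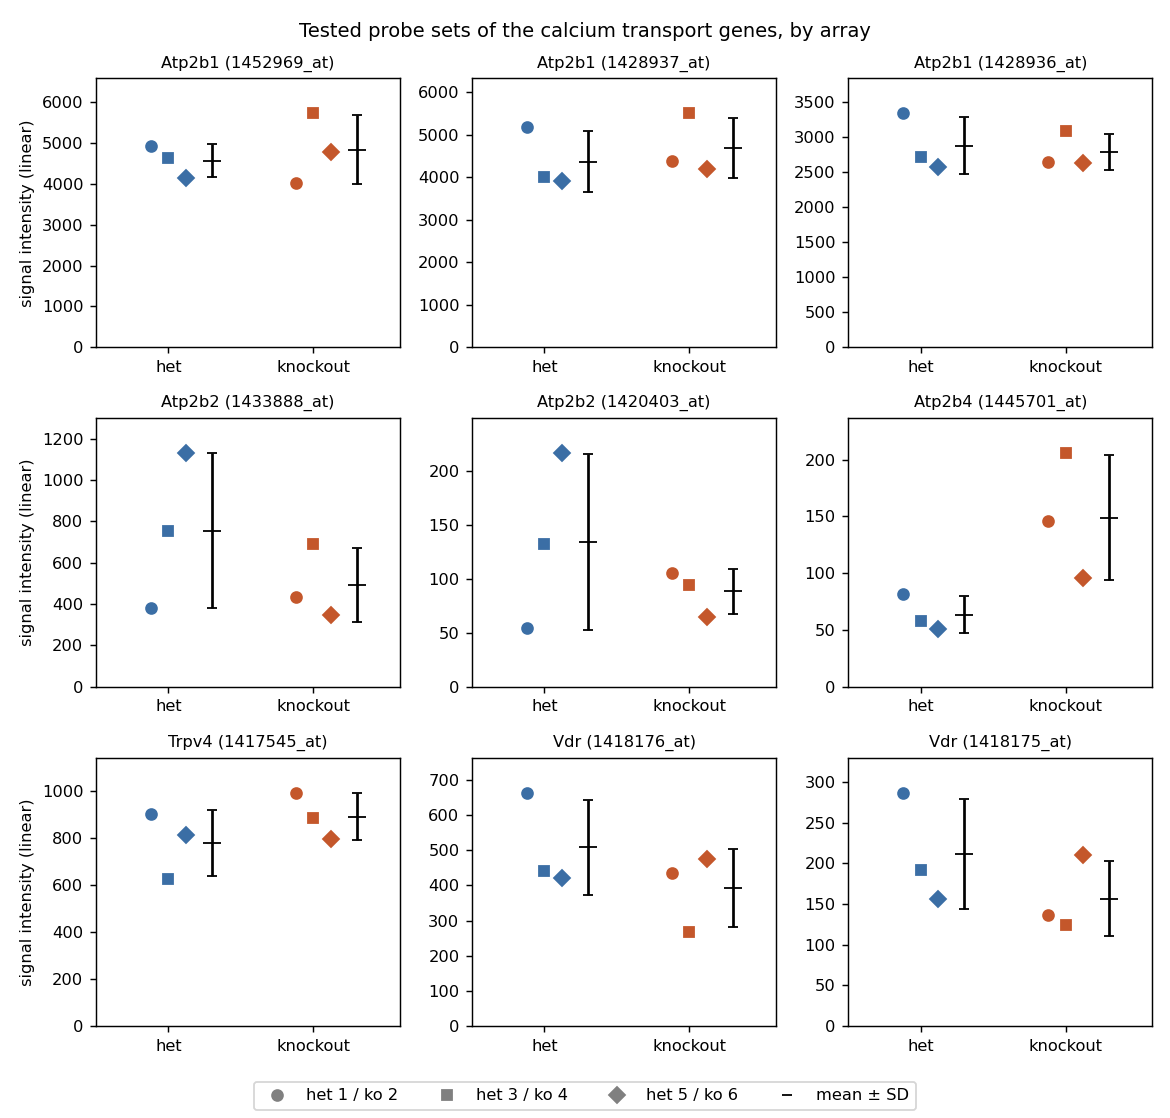
Signal intensity on a linear axis from 0 (vertical) for the 9 tested probe sets, with heterozygous arrays in blue and knockout arrays in orange, a marker shape for each array, and the mean ± SD of 3 arrays in black. The shapes name arrays and do not pair them. The groups are apart for Atp2b4 (51.1 to 82.0 against 95.4 to 205.8) and overlap in the other 8 panels.

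Atp2b1, the pump that most cells use to keep calcium low, was bright on all 3 of its probe sets and close between genotypes. On probe set 1452969_at the signals were 4925, 4647 and 4139 in heterozygous replicates 1, 3 and 5 and 4026, 5729 and 4779 in knockout replicates 2, 4 and 6. The knockout arrays held both the highest and the lowest value. The log2 difference was 0.07 ± 0.13 (SE), with a 95% interval of the fold from 0.857 to 1.29 (limma adjusted p = 0.872). Probe sets 1428937_at and 1428936_at gave 0.11 ± 0.14 and -0.04 ± 0.13 (SE), with intervals of the fold from 0.866 to 1.34 and from 0.796 to 1.19. The 2.02-fold estimate of Atp2b4 lay outside all 3 intervals. Its own 95% interval began at 1.27-fold, below the upper ends for 1452969_at and 1428937_at. The difference between the 2 pumps was not tested. The sign was not stable: the first 2 probe sets turned to -0.13 and -0.09 when arrays were centred on their medians. The first 2 probe sets were highest in knockout replicate 4, and 1428936_at in heterozygous replicate 1. The summed signal of 8 marginal cell genes was highest in knockout replicate 4, at 46602 against 40167 to 42720 in the other arrays. Kcne1, Slc12a2 and Atp1b2 were highest there, while Kcnq1 and Hmx2 were lowest there. Of the 8 genes, 2 had a higher and 6 a lower mean in knockout arrays. The part of these cells in the Atp2b1 values was not tested.

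Atp2b2 varied more among heterozygous arrays than between genotypes. On its brightest probe set, 1433888_at, the signals were 378.4, 754.5 and 1131 in heterozygous replicates 1, 3 and 5 and 436.0, 692.4 and 348.9 in knockout replicates 2, 4 and 6. Heterozygous replicate 5 was the highest of the 6 and heterozygous replicate 1 lay below 2 of the knockout arrays. The log2 difference was -0.53 ± 0.37 (SE, 95% interval from -1.36 to 0.31, limma adjusted p = 0.627). Probe set 1420403_at had the same highest array, with 53.9, 131.8 and 216.3 in heterozygous and 105.4, 94.2 and 64.7 in knockout replicates in the same order, and a log2 difference of -0.38 ± 0.40 (SE). Single arrays moved both differences in either direction. Without heterozygous replicate 5 they were -0.17 and 0.013, and without heterozygous replicate 1 they were -0.94 and -0.85 (limma adjusted p = 0.405 and 0.431). For 1433888_at the difference was -0.79 without knockout replicate 4, -0.31 without knockout replicate 6 and -0.96 with array weights (limma adjusted p = 0.237), and for 1420403_at it was -0.21 without knockout replicate 6 and -0.69 with array weights. On the third probe set, 1420402_at, which lay under the filter, that array stood at 69.6 and the others between 6.48 and 38.6.

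The buffers were dim, and heterozygous replicate 5 was again the highest array on the brightest probe set of each. Calb2, known as calretinin, had signals of 24.6, 26.3 and 80.4 in heterozygous replicates 1, 3 and 5 and of 19.9, 1.59 and 3.97 in knockout replicates 2, 4 and 6 on its only probe set (1451129_at). Every knockout array lay below every heterozygous one, with a gap of under 5 signal units between 24.6 and 19.9. The probe set was under the filter and had no test over all tested probe sets; the two-sided exact permutation p was 0.1, as low as this design can go, and with no filter its log2 difference was -1.24 ± 0.39 (SE, limma adjusted p = 0.497). Calb1, the buffer of calcium-absorbing epithelia and of many neurons, had 4 probe sets, all under the filter. On 1417504_at it stood at 2.99, 16.1 and 75.0 in heterozygous and at 5.31, 31.3 and 24.9 in knockout replicates in the same order, with the other 3 probe sets between 0.460 and 21.4 on all arrays. S100g, the small vitamin D-dependent calbindin of gut and kidney, stood at 23.8, 22.9 and 46.9 in heterozygous and at 21.2, 21.2 and 42.3 in knockout replicates, the groups overlapping (log2 difference -0.09).

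Several markers of other cochlear cells were highest in that same array. Slc26a4 stood at 1006 there, as given above. The otogelin gene Otog was at 27.8, 65.4 and 350.4 in heterozygous replicates 1, 3 and 5 and between 17.9 and 54.6 in knockout arrays, and the water channel gene Aqp4 was at 42.7, 101.8 and 771.8 against 23.1 to 52.3. The summed signal of 8 genes of root, spindle and outer sulcus cells was 11745, 13587 and 20511 in heterozygous replicates 1, 3 and 5 and between 10066 and 12859 in knockout arrays, with Lgr5 under the filter. Most of it was Epyc and Anxa1. Epyc was highest in heterozygous replicate 5, at 10405. Anxa1 went the other way, between 6015 and 6893 in heterozygous and between 7313 and 7543 in knockout arrays. The sum of hair cell genes gave no such clear order: 11 summed to between 2907 and 3837 in heterozygous and between 3064 and 3634 in knockout arrays. Most of this sum was Myo6. Of the 11, 8 were under the filter. Among these, the defining genes Pou4f3 and Otof reached no more than 4.35 and 18.5 on any array. Myo7a was at 139.6 in heterozygous replicate 5 and between 49.4 and 73.7 elsewhere. Slc26a5, Gfi1, Chrna9 and Otof, with means under the filter, were also highest in that array, at 42.7, 60.7, 53.1 and 18.5. Pou4f3, Myo6, Atoh1, Tmc1, Cdh23 and Espn were highest in other arrays. The part of these cells in the Atp2b2 and calbindin values was not tested.

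**Figure D2:**
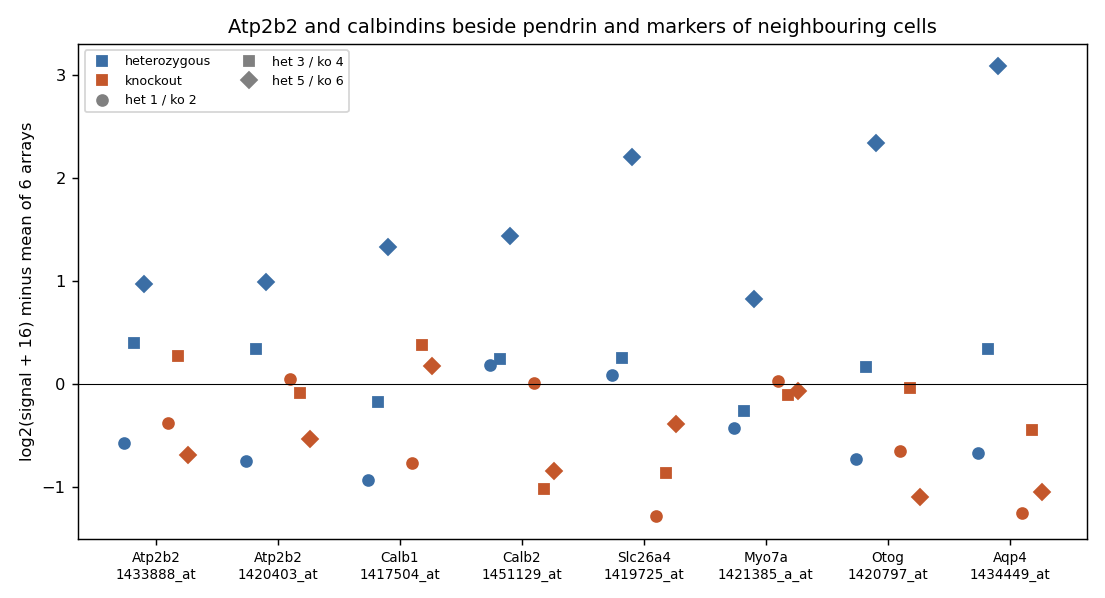
Vertical axis: log2(signal + 16) minus the mean of the 6 arrays, for the 2 tested Atp2b2 probe sets, the brightest Calb1 probe set, Calb2, Slc26a4 and the marker genes Myo7a, Otog and Aqp4 (horizontal axis, with probe set names). Heterozygous arrays are blue, knockout arrays orange, and heterozygous replicate 5 (blue diamond) is the highest point in each of the 8 columns. Myo7a, Otog and Aqp4 were chosen after their values were seen. Some other genes of the same marker lists, among them Anxa1, Myo6 and Espn, were highest in other arrays. Others, among them Epyc and Chrna9, were highest in heterozygous replicate 5. None of these is drawn.

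Of the remaining transporters and channels, Trpv4 did not pass the test and the others were too dim for it. Trpv4, a cation channel that opens on cell swelling and warmth, had signals of 903.5, 628.3 and 813.3 in heterozygous replicates 1, 3 and 5 and of 994.3, 884.1 and 795.0 in knockout replicates 2, 4 and 6. The groups overlapped, with a log2 difference of 0.195 ± 0.18 (SE, 95% interval of the fold from 0.864 to 1.52, limma adjusted p = 0.722), which turned to -0.0042 with median centring. It was 0.049 without heterozygous replicate 3, 0.11 without knockout replicate 2 and 0.31 without heterozygous replicate 1. Trpv6, the calcium-selective channel of absorbing epithelia, was under the filter at 15.2, 17.5 and 8.61 in heterozygous and 6.44, 18.7 and 9.95 in knockout arrays, an order with no separation. Slc8a1, which trades calcium for sodium, was under the filter on all 4 of its probe sets, with signals between 0.448 and 24.3. At these levels a difference in Trpv6 or Slc8a1 transcripts was not detectable on these arrays. Across the 12 untested member probe sets, 4 of 72 values exceeded the signal of 43.9 that corresponds to the filter, all 4 of them in heterozygous replicate 5 (Atp2b2, Calb1, Calb2 and S100g), while that array held 14.2% of such values over all 18015 untested probe sets and knockout replicate 4 held 35.4%.

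**Figure D3:**
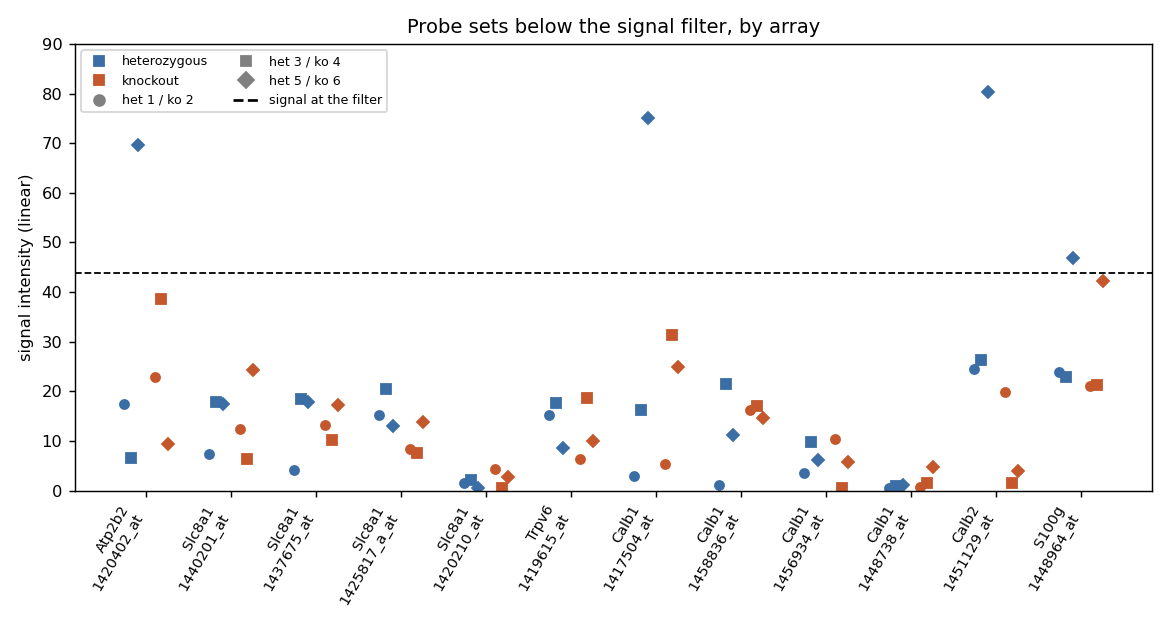
Signal intensity on a linear axis (vertical) for the 12 probe sets that lay under the signal filter (horizontal axis), with heterozygous arrays in blue, knockout arrays in orange and a marker shape for each array. The dashed line marks a signal of 43.9, and the 4 points above it are all heterozygous replicate 5.

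Vdr, the nuclear receptor for active vitamin D, gave a lower mean in knockout samples on both probe sets without passing. On 1418176_at the signals were 663.7, 440.5 and 421.1 in heterozygous replicates 1, 3 and 5 and 435.9, 266.3 and 476.1 in knockout replicates 2, 4 and 6. Heterozygous replicate 1 was the highest and knockout replicate 4 the lowest, and the other 4 arrays were mixed. The log2 difference was -0.37 ± 0.26 (SE, 95% interval from -0.96 to 0.22, limma adjusted p = 0.629). Probe set 1418175_at followed it across the 6 arrays (Pearson r = 0.88, as a description), with 286.9, 191.8 and 156.1 against 136.7, 123.7 and 210.0 and a log2 difference of -0.39 ± 0.29 (SE). Without heterozygous replicate 1 the differences were -0.17 and -0.16, and without knockout replicate 4 they were -0.12 and -0.25. Without knockout replicate 6 that of 1418175_at was -0.60. The 7 basal cell marker genes, all above the filter, summed to their lowest value, 46454, in heterozygous replicate 1 and to their highest, 52347, in knockout replicate 4, the reverse of Vdr, and a part of cell content in the Vdr values was not tested.

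Calcium genes beyond the 10 were read from 7 lists of pumps, channels, buffers and hormones. Of 95 such genes on the array 68 were tested, 1 probe set each, and none passed (limma adjusted p, threshold 0.05); at an unadjusted p under 0.05 there were 3 higher and 3 lower, where 9.14% of all tested probe sets were higher and 2.47% lower at that p. The median log2 difference was 0.0096, with 35 higher and 33 lower, where 49.4% of all tested probe sets were higher. Every knockout array lay above every heterozygous one for 7 of the 68 and below for 5, where the shares of all tested probe sets were 11% and 5.99%, so these counts are near the background.

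Among voltage-gated channel genes, 8 of 11 tested had a higher mean in knockout samples, where 49.4% of all tested probe sets did, and the median was 0.18. At an unadjusted p under 0.05 there was 1 of the 11, near the 9.14% of all tested probe sets. Cacna1e, which encodes the pore of R-type calcium channels, had signals of 594.5, 567.9 and 416.1 in heterozygous replicates 1, 3 and 5 and of 1348, 2129 and 1040 in knockout replicates 2, 4 and 6. Each knockout array exceeded each heterozygous one, and the log2 difference of 1.44 ± 0.26 (SE), 2.72-fold on this scale, had the smallest limma adjusted p of the 68, 0.272. It passed when arrays were weighted by quality (limma adjusted p = 0.0369), over a range from 0.0369 to 0.860 across the alternatives, and was 1.16 without knockout replicate 4. Its other probe set was dim, at 16.1 to 28.1 against 29.7 to 34.5. The 9 neuron genes, 7 of them under the filter, summed to between 536.5 and 953.7 in heterozygous and between 341.7 and 482.0 in knockout arrays, and their part in Cacna1e was not tested. Of the accessory subunits, Cacna2d4 had 0.54, Cacnb2 -0.53 and Cacna2d3 -0.51 as log2 differences, none past the threshold, and that of Cacnb2 was -0.30 without heterozygous replicate 1. The other Cacnb2 probe set gave -0.35, and those of Cacna2d4, under the filter, gave 0.12 and -0.03.

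The genes of vitamin D and calcium hormones went both ways, with 3 of 6 tested higher and 3 lower. Kl, which encodes klotho, a co-receptor for a phosphate hormone that also acts on epithelial calcium channels, stood at 158.5, 141.9 and 168.8 in heterozygous and at 72.9, 67.7 and 70.3 in knockout arrays. The values within each genotype were close and the groups were far apart, with a log2 difference of -0.995 ± 0.22 (SE, limma adjusted p = 0.370), between -1.06 and -0.94 when 1 array was left out. Its other probe set, at 39.1 to 64.9 on the 6 arrays, gave -0.11 with overlapping groups. Pth1r, the receptor for parathyroid hormone and its related peptide in bone and kidney, stood at 208.7 ± 36.7 and 315.2 ± 49.4 (SD, n = 3 each; log2 difference 0.56), and Cyp24a1, the enzyme that degrades active vitamin D and a well-known target of Vdr, at 43.9 ± 4.07 and 68.0 ± 8.74 (SD, n = 3 each; log2 difference 0.48). The heterozygous level of Cyp24a1 lay at the filter. On these probe sets of both genes every knockout array was above every heterozygous one, and neither passed (limma adjusted p = 0.390 and 0.463). The other Cyp24a1 probe set, under the filter, overlapped, at 4.18 to 11.4 in heterozygous and 10.6 to 15.0 in knockout arrays. The sums of the osteoblast and osteocyte markers, given above, ran higher in knockout arrays with an overlap of the groups, and their part in Pth1r was not tested.

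Genes of internal stores had no call. Of 12 tested genes of store pumps and mitochondrial transport, 4 were higher and 8 lower, with a median of -0.08. Pln, the phospholamban that restrains the store pump in muscle, averaged 696.5 ± 101.1 in heterozygous arrays and 436.7 ± 89.4 in knockout arrays (SD, n = 3 each; log2 difference -0.66 ± 0.20 SE, limma adjusted p = 0.370), with -0.67 and -0.52 on the other 2 probe sets. Casq2, the calsequestrin that binds calcium inside muscle stores, had 202.5, 308.2 and 214.4 in heterozygous and 99.7, 27.4 and 133.6 in knockout arrays in replicate order, lowest in knockout replicate 4. Its log2 difference of -1.48 ± 0.42 (SE, limma adjusted p = 0.370) was -0.95 without that array. The 10 pericyte and smooth muscle genes, 1 of them (Cnn1) under the filter, summed to 7133 in that array and to between 9808 and 12272 in the others. In knockout replicates 2, 4 and 6 Pln stood at 367.3, 537.6 and 405.2 on its brightest probe set. Its other 2 probe sets were at 189.8, 126.6 and 156.5 and at 28.9, 45.6 and 68.7. The part of these cells in Pln and Casq2 was not tested. Mcu, the mitochondrial calcium uniporter, had -0.23. Of 8 genes of store release and store-operated entry 4 were higher and 4 lower, and none was at an unadjusted p under 0.05. Stim1, the store calcium sensor, had -0.39, which was -0.15 without knockout replicate 4 and -0.60 without knockout replicate 6. Its other probe set gave -0.43.

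Among the other pumps and exchangers of the plasma membrane, 3 of 5 tested genes were higher and 2 lower, and Slc8a3, a relative of Slc8a1, had a log2 difference of -0.40 that was -0.08 without heterozygous replicate 5. In the Trp and mechanosensitive channel list 5 of 8 tested were higher. Piezo2, a channel opened by membrane stretch, stood at 172.6 ± 31.6 and 272.5 ± 81.7 (SD, n = 3 each; log2 difference 0.59, limma adjusted p = 0.422; 0.38 without knockout replicate 4), and Trpv1, the heat- and capsaicin-gated channel, had 0.54, which was 0.36 without heterozygous replicate 3. Of 18 tested buffers and sensors beside the members, 8 were higher and 10 lower. The log2 difference of Hpcal1, a neuronal calcium sensor relative, was -0.56, and -0.28 without knockout replicate 4. It was 0.49 for Rcn3, a binding protein of the endoplasmic reticulum, and 0.15 for Calr, the calcium-binding chaperone calreticulin, which turned to -0.05 with median centring. Calr probe sets 1433806_x_at and 1417606_a_at gave 0.19 with the groups apart and 0.10 with the groups overlapping.

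**Figure D4:**
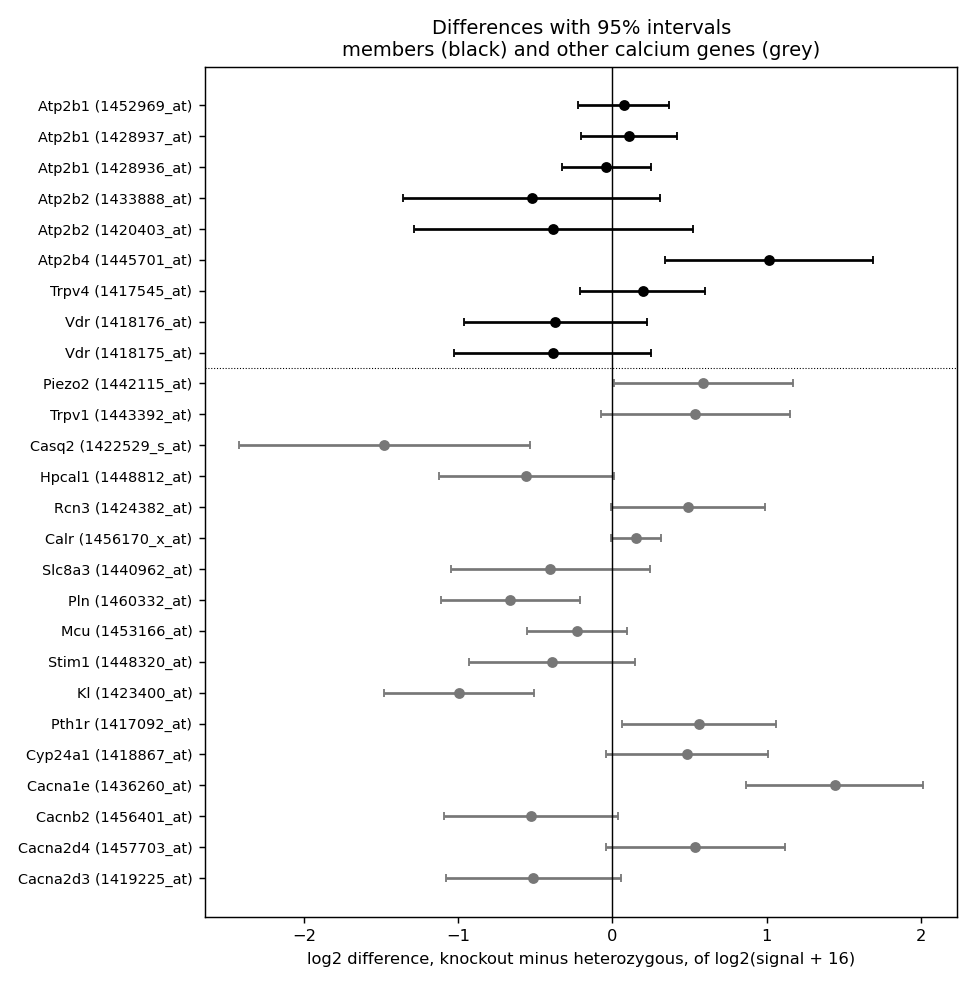
Log2 difference of log2(signal + 16), knockout minus heterozygous (horizontal axis), with 95% intervals from limma, for the 9 tested probe sets of the calcium transport genes (black) and 17 other calcium genes (grey). The interval of Atp2b4 runs from 0.34 to 1.69 and those of the other 8 black points cross 0; with median centring Trpv4, Calr and 2 Atp2b1 probe sets change sign.

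As a description, the genes whose log2 signal most closely followed the brightest tested pump, channel and receptor over the 6 arrays were found among 12427 others. They were C330007P06Rik, Agr2 and Mdh2 for Atp2b1 (Pearson r between 0.986 and 0.996), Sppl2b, Caml and Pik3ip1 for Trpv4 (0.982 to 0.987), and Bcdin3d, Ttc39c and Ten1 for Vdr (0.988 to 0.994). With 6 arrays such values are common: 26, 36 and 83 genes had an r above 0.95.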

How the data were processed

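Per the labels' protocols, total RNA was extracted with a Qiagen kit, labelled with the NuGEN Ovation protocol and hybridised to Affymetrix arrays. The deposited values are linear signal intensity for each probe set, computed with GCOS per the submitters' processing notes; its version is not given in the sources used here. No value was at or below 0, and the arrays shared a 2% trimmed mean of 500.002, so they had been scaled before deposit. Precision is limited by the number of arrays.

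Of 45101 probe sets, 64 controls were left out and 34945 had 1 symbol in the platform annotation. Values were taken as log2(signal + 16), which understates changes of dim genes, and those with a mean below the 40th percentile (equal to a signal of 43.9) were dropped. The 27022 left were fitted with limma 3.58.1 in R 4.3.3 (variance trend, two-sided, Benjamini-Hochberg over all of them). The code was tested on simulated data; the simulated spread, the random seeds and the pass criteria were revised after first versions failed, the fitting code was not, and the share of false calls averaged somewhat above the nominal threshold. Figures used matplotlib 3.10.9. Signal levels of probe sets were ranked to apply the filter and to pick the brightest of a gene, and were summed over marker lists. No difference in level between probe sets was tested.

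The text names every member, Slc26a4, and from each calcium list up to 2 genes per direction by p, kept where the unadjusted p was under 0.2, which was set after the values were seen. Otog, Aqp4, Myo7a and other markers were also named after their values were seen. The members and lists were chosen with earlier results of these data known. Alternatives were offsets of 1 and 64, quantile, cyclic loess and median normalisation, no filter or a 60th percentile filter, other variance models, array weights, 1 probe set per gene, and each array left out in turn.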

Additional observations from a re-analysis of the deposited data

How the results depend on the processing

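No member probe set passed under any of the 17 alternatives. At an unadjusted p under 0.05 limma gave 1 of 9 as reported, 2 of 21 with no filter and 0 of 7 with a 60th percentile filter. It gave 2 of 9 with array weights (Atp2b4 and Atp2b2 1433888_at). Without heterozygous replicate 1 it gave 3 of 9, which were Atp2b4 and both tested Atp2b2 probe sets. Of all 27022 tested probe sets, 3138 reached that p as reported, 3807 with array weights and 2835 without heterozygous replicate 1. The number of all probe sets called was 1, and 3 with quantile normalisation, 2 with cyclic loess and 3 with median centring. It was 0 with no filter, where 4301 of 45037 tested had an unadjusted limma p under 0.05. It was also 0 with a 60th percentile filter, where 1527 of 18015 tested did. It was 25 with array weights and 11 with the brightest probe set of each gene. When 1 array was left out it was 0 to 13, and 13 without knockout replicate 4. Median centring moved the median of all probe sets from -0.0044 to -0.20 and that of the members from -0.04 to -0.24; leaving out 1 array gave -0.12 to 0.07. With median centring the sign turned for Trpv4 (-0.0042), 2 Atp2b1 probe sets (-0.093 and -0.13) and Calr (-0.049). Leaving out 1 array gave -0.12 to 0.072, -0.013 to 0.24 and -0.055 to 0.20 for the Atp2b1 probe sets 1428936_at, 1428937_at and 1452969_at and -0.85 to 0.013 for Atp2b2 1420403_at, the cause not tested. The other 139 of 147 member values kept direction and call, as did 298 of 300 for the other named genes, the exceptions being Calr and Cacna1e. Dim signal limits Slc8a1, Trpv6, S100g and both calbindins. No paired analysis was possible because the genotypes share no replicate number.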
